A study of Mus musculus with 10 samples.

Results

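Megalin and cubilin are the endocytic receptors of the kidney proximal tubule, and 6 genes of their apparatus were followed here in whole mouse kidney: Lrp2 (megalin), Cubn (cubilin), Amn (amnionless), Dab2, Clcn5 and Ocrl. They were chosen by name as a functional group, and all 6 were found by gene symbol among the 46517 Ensembl genes counted. The 6 genes and the gene lists below were chosen with earlier results of these data known, so their counts are a description. Kidney RNA, copied to cDNA with oligo-dT primers, was sequenced in 10 libraries, and the study concerns variants of human APOL1 expressed in mouse podocytes, the epithelial cells of the glomerular filter. By genotype label the libraries were G1-APOL1 (n = 2) and G2-APOL1 (n = 2), the alleles of human APOL1 known as risk alleles for kidney disease, wild type (single mutant), with 3 libraries, and Control, with another 3. The promoter of the transgene, any agent that induces it, and the strain, age and sex of the mice are unstated in the labels, and so is the meaning of "single mutant". In the wild type (single mutant) group 2 libraries have titles that begin much like those of the risk allele libraries (G1NF and GNA), and the genotype label was followed. Whether libraries of a group are different mice is not stated either, and p-values speak only of the scatter among these libraries, which may be technical.

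Megalin and cubilin sit on the brush border and bind albumin, vitamin-carrying proteins and other small proteins that pass the glomerular filter. Megalin is a very large single-pass membrane protein. Cubilin has no membrane anchor of its own and needs amnionless to reach the cell surface. The adaptor Dab2 links the cytoplasmic tail of megalin to clathrin, the chloride-proton exchanger ClC-5 (Clcn5) takes part in endosome acidification, and the phosphatase OCRL removes a phosphate from phosphoinositides on endocytic membranes. Loss of CLCN5 or OCRL in people causes Dent disease or Lowe syndrome, in which filtered small proteins are lost into the urine.

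Library totals ran from 27596391 to 34815153 counts, and between 4.88% and 8.92% of the counts were mitochondrial. Levels below are CPM (counts per 1000000 counts) on library sizes scaled by TMM, a method that sets most genes to no change. Of 17823 genes tested, the 4 libraries with risk alleles did not overlap with the 6 others for 30.4%, standing wholly above for 16.4% and wholly below for 14%. All 24 markers of the early proximal tubule, segments S1 and S2, were detected, and their sum was 32346 to 39143 CPM in the 6 other libraries, 9542 to 12569 CPM in G1 and 13741 to 15314 CPM in G2. When libraries were scaled by their totals alone, the median log2 fold change of all tested genes between risk alleles and Control was 0.28 in place of 0.00, so each fold change below rests on that choice of scale.

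Lrp2 (ENSMUSG00000027070.13, GRCm38 chromosome 2, 69424340 to 69586065, minus strand) showed the largest difference among the 6 genes. It stood at 1722, 1899 and 2175 CPM in the Control libraries and at 1909, 1815 and 1693 CPM in wild type (single mutant). The G1 libraries were at 566 and 531 CPM and the G2 libraries at 856 and 782 CPM. Every library with a risk allele was below every other library, and both G1 libraries were below both G2 libraries. Lrp2 fell against Control with a log2 fold change of -1.82 ± 0.15 (SE) in G1 and -1.24 ± 0.14 in G2, and with -1.53 ± 0.11 for the mean of both alleles (quasi-likelihood test of edgeR, p adjusted by Benjamini-Hochberg, adjusted p = 6.33e-05, 0.00108 and 7.05e-05). Against wild type (single mutant) the log2 fold change of the mean of both alleles was -1.43 ± 0.11 (adjusted p = 7.34e-05). Scaled by library totals alone, it was -1.25 ± 0.10 against Control (adjusted p = 5e-05). In whole kidney, fewer proximal tubule cells and less RNA per cell cannot be told apart.

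Cubn (ENSMUSG00000026726.10, chromosome 2, 13276338 to 13491813, minus strand) moved the same way by a smaller amount. The Control libraries held 387, 413 and 484 CPM and those of wild type (single mutant) 431, 379 and 362 CPM. G1 was at 214 and 181 CPM and G2 at 219 and 193 CPM, so the 4 libraries with risk alleles lay close together and below the 6 others. Cubn fell against Control by 1.12 ± 0.14 on the log2 scale in G1 and by 1.06 ± 0.14 in G2 (edgeR, adjusted p = 0.000545 and 0.00207). For the mean of both alleles the log2 fold change was -1.09 ± 0.12 with Control as reference and -0.96 ± 0.12 with wild type (single mutant) (adjusted p = 0.000232 and 0.000401). A non-coding transcript on the opposite strand, Gm13270, shares 368 exon bases with Cubn and held 5 to 27 counts per library, where Cubn held 6731 to 12600.

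Amn (ENSMUSG00000021278.6, chromosome 12, 111271095 to 111276426, plus strand), the partner that carries cubilin to the membrane, did not pass the test. Its level was 198, 217 and 190.3 CPM in Control and 207, 199 and 204 CPM in wild type (single mutant). The G1 libraries held 168 and 164 CPM, and the G2 libraries 201 and 119.5 CPM. The 2 G2 libraries therefore differed more from each other than either G1 library did from Control, and G2 replicate 1 lay inside the range of the 6 others. Against Control the log2 fold change was -0.30 ± 0.15 for the mean of both alleles (95% interval -0.65 to 0.04, edgeR adjusted p = 0.149), and a fall of the size seen in Cubn lies outside this interval. Without G2 replicate 1, Amn was called lower at -0.52 (adjusted p = 0.00356).

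The upstream sequences of the 2 receptors that fell, and of Amn as the partner that did not pass the test, are shown because the receptors moved together. Each line holds the 200 bases from 250 to 51 bases upstream of the RefSeq start (GRCm38.p6), on the strand of the gene. Capitals mark GTTAA, the first 5 letters of the binding site of the proximal tubule transcription factor HNF1, and the GC box GGGCGG, read on both strands.
Lrp2, chr2:69586080-69586279, minus strand: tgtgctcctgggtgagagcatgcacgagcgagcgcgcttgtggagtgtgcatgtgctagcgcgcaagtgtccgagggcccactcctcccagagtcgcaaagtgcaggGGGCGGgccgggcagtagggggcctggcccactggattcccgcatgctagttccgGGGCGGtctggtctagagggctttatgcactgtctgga
Cubn, chr2:13491927-13492126, minus strand: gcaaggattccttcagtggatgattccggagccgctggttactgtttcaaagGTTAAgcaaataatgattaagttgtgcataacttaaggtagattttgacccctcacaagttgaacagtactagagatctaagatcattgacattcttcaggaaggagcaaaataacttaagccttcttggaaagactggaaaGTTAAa
Amn, chr12:111270846-111271045, plus strand: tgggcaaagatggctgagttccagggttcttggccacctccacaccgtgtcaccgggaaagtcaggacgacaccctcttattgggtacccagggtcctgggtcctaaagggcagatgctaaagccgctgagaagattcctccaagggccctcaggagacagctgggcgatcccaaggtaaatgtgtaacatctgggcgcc
The Lrp2 window has 2 GC boxes, no GTTAA and 65% G and C, a share above that of 84.1% of 32851 such windows. The Cubn window has 2 matches to GTTAA, no GC box and 38.5% G and C, above 10.6% of windows, while the Amn window has neither motif and 57.5% G and C. Within these 200 bases the windows of Lrp2 and Cubn differ in base composition and in both motifs. Control of the genes by these sequences was not tested. GTTAA occurred in 18.5% of all windows, the longer GTTAAT, which contains it, in 5.33%, and GGGCGG in 24.6%. GTTAAT had no match in these 3 windows. Of the windows not printed, Dab2 has 1 GTTAAT in the second of its 2, which overlaps annotated exon, and none of these motifs in the first. Clcn5 has 1 GC box in its first window and 1 GTTAA in its second, and the Ocrl window has no match. A match is a string of letters, and binding was not measured.

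Dab2 (ENSMUSG00000022150.15, chromosome 15, 6299788 to 6440712, plus strand), the clathrin adaptor of megalin, was lower in all 4 libraries with risk alleles on the TMM scale. It held 463, 617 and 554 CPM in Control and 562, 535 and 547 CPM in wild type (single mutant). G1 was at 461 and 348 CPM and G2 at 344 and 266.5 CPM. The higher G1 library lay just under the lowest Control library. By library totals alone it was at 514 CPM, inside the Control range of 436 to 576 CPM. Dab2 fell in G2 against Control with a log2 fold change of -0.84 ± 0.18 (edgeR, adjusted p = 0.0113), a call that was lost without G2 replicate 2 (-0.67, adjusted p = 0.0668). In G1 it was not called at -0.43 ± 0.17 (adjusted p = 0.0833). For the mean of both alleles the log2 fold change was -0.63 ± 0.14 (adjusted p = 0.00868), and -0.36 ± 0.13 with library totals alone (adjusted p = 0.0448). An annotated pseudogene on the opposite strand, Gm18888, shares 211 exon bases with Dab2. Macrophages also express Dab2. All 12 macrophage markers rose for the mean of the alleles against Control, where 19.3% of all tested genes were called higher. Their sum went from 174 to 256 CPM in Control to 975 to 1155 CPM in G1 and 862 to 1276 CPM in G2. The part of macrophages in the level of Dab2 was not tested.

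Clcn5 (ENSMUSG00000004317.13, chromosome X, 7153810 to 7319358, minus strand) was lower with the risk alleles and lowest in G2. The Control libraries held 107, 124 and 117 CPM and those of wild type (single mutant) 112, 129 and 112 CPM. The G1 libraries were at 98.0 and 88.2 CPM, and both G2 libraries at 72.8 and 72.0 CPM. On this scale no library with a risk allele reached the range of the others, whereas by library totals alone both G1 libraries, at 109 and 103 CPM, lay inside the Control range of 100.4 to 116 CPM. Clcn5 fell in G2 against Control with a log2 fold change of -0.68 ± 0.11 (edgeR, adjusted p = 0.00359). The fall in G1, -0.31 ± 0.11 with adjusted p = 0.0465, was lost in 11 alternatives. It was -0.02 with library totals alone (adjusted p = 0.901), -0.30 with DESeq2 size factors (adjusted p = 0.059), and it was not called without the filter on low counts, with only the groups compared (adjusted p = 0.167 and 0.0758), or without either G1 library, either G2 library, wild type (single mutant) replicate 1, or Control replicates 2 or 3 (adjusted p = 0.063 to 0.35). For the mean of both alleles the log2 fold change was -0.49 ± 0.09 (adjusted p = 0.00276), and -0.22 ± 0.08 with library totals alone (adjusted p = 0.0493).

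Ocrl (ENSMUSG00000001173.14, chromosome X, 47912387 to 47965868, plus strand) showed no called difference in any comparison. It held 17.1, 22.5 and 25.3 CPM in Control, 25.2, 20.6 and 20.0 CPM in wild type (single mutant), 21.3 and 20.9 CPM in G1, and 19.4 and 25.7 CPM in G2. The groups overlapped fully. For the mean of both alleles against Control the log2 fold change was 0.01 ± 0.16 (95% interval -0.35 to 0.38, edgeR adjusted p = 0.955), and 0.29 ± 0.17 with library totals alone (adjusted p = 0.196). Its sign turned under other settings as well, so no direction is given for it.

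**Figure D1:**
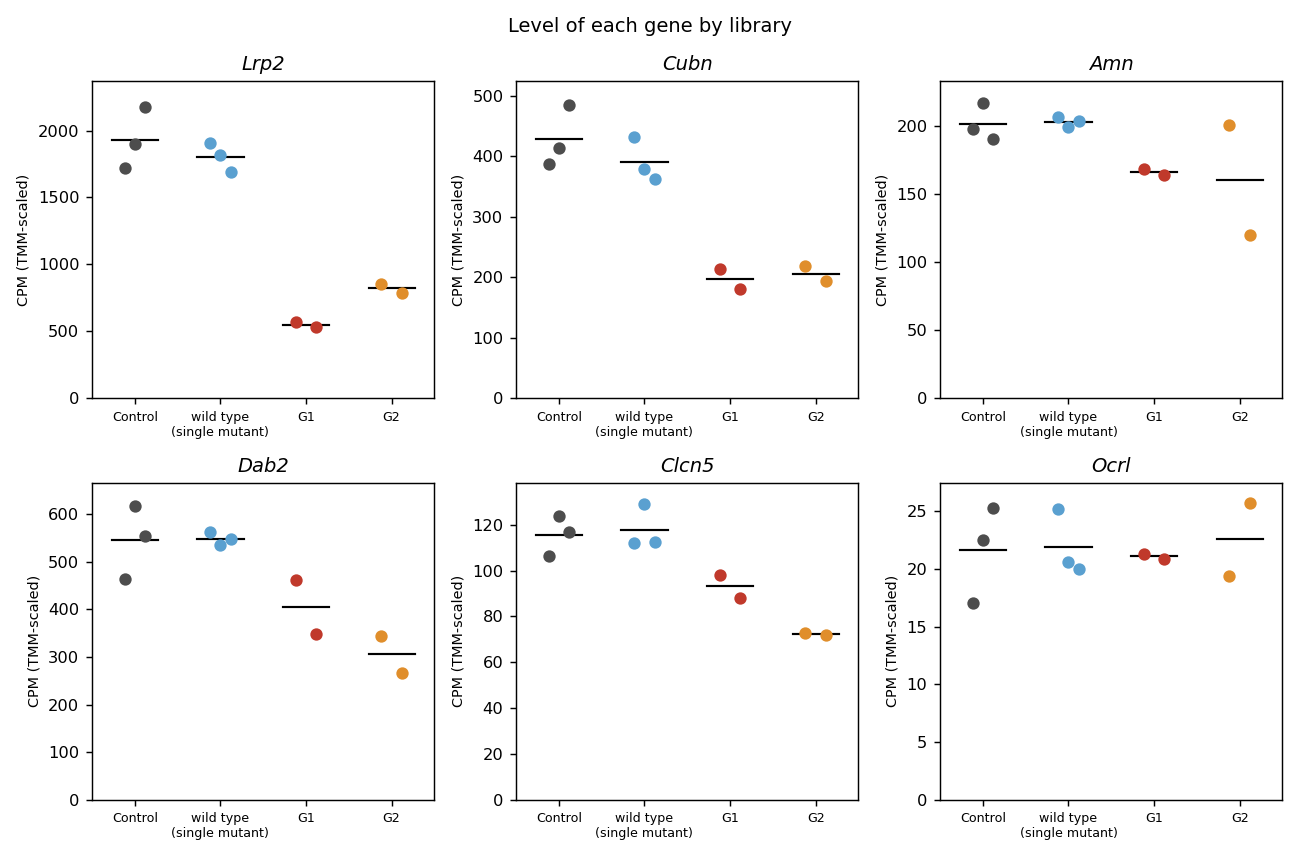
Level of the 6 genes in each library, in TMM-scaled CPM on a linear axis that starts at 0; each point is a library, each bar a group mean. Lrp2 lies at 531 to 856 CPM in the 4 libraries with risk alleles and at 1693 to 2175 CPM in the 6 others, while Ocrl overlaps in all groups.

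Counted over the group, 4 of the 6 genes fell and none rose with the mean of the risk alleles against Control, where 18% of all tested genes were called lower, 19.3% higher and 37.3% either way. The median log2 fold change of the 6 was -0.56, beside 0.00 for all tested genes. The same 4 genes, Lrp2, Cubn, Dab2 and Clcn5, were those whose groups did not overlap on the TMM scale. On that scale 14% of all tested genes stood wholly below and 30.4% did not overlap either way. By library totals alone only Lrp2 and Cubn did not overlap, since G1 libraries of Dab2 and Clcn5 then lay among the Control libraries. The share of all genes without overlap was not counted in that setting. Against wild type (single mutant), 4 fell and none rose, where 19.3% of genes were called lower, 20.6% higher and 39.9% either way. With each allele against Control, 3 fell and none rose in G1, where 17.9% of genes were called lower, 19.5% higher and 37.3% either way. In G2 4 fell and none rose, where 8.86% were called lower, 12.7% higher and 21.6% either way. The comparisons with Control share its 3 libraries. Some of these background counts rest on single libraries. The genes called lower in G1 numbered 3184 with all libraries, 1834 without G1 replicate 1 and 1267 without G1 replicate 2. Those in G2 numbered 1579, and 797 without G2 replicate 1.

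Between wild type (single mutant) and Control the 6 genes had log2 fold changes from -0.13 (Cubn) to 0.03 (Clcn5), and none was called. The edgeR test called 0% of all tested genes there, with 724 genes at an unadjusted p under 0.05, while DESeq2 called 14 genes and limma-voom called 0. The 95% interval of the difference was -0.37 to 0.18 for Lrp2 and -0.41 to 0.15 for Cubn.

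Between the risk alleles, Lrp2 was lower in G1 and Clcn5 and Dab2 were lower in G2, but no difference passed the edgeR test. Lrp2 was higher in both G2 libraries than in both G1 libraries, with a log2 fold change of 0.58 ± 0.15 for G2 against G1 (95% interval 0.24 to 0.92, edgeR adjusted p = 0.0534). It was called in DESeq2 (0.54, adjusted p = 0.00328), in limma-voom (0.58, adjusted p = 0.0286), with library totals alone (0.53, adjusted p = 0.0409) and without Control replicate 3 (0.58, adjusted p = 0.0495). No other alternative called Lrp2, and leaving out each library in turn gave 0.44 to 0.62. Clcn5 went the other way, at -0.36 ± 0.12 (edgeR adjusted p = 0.0963, and 0.023 in DESeq2). Dab2 was at -0.41 ± 0.19 (adjusted p = 0.226). For Cubn the difference was 0.06 ± 0.15, with a 95% interval of -0.29 to 0.41. In this comparison 6.72% of all tested genes were called, 3.84% higher and 2.88% lower in G2, in all 1198 genes, a number that dropped to 84 without G1 replicate 1, 22 without G1 replicate 2, 778 without G2 replicate 1, 191 without G2 replicate 2 and 745 without either wild type (single mutant) replicate 1 or Control replicate 1.

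**Figure D2:**
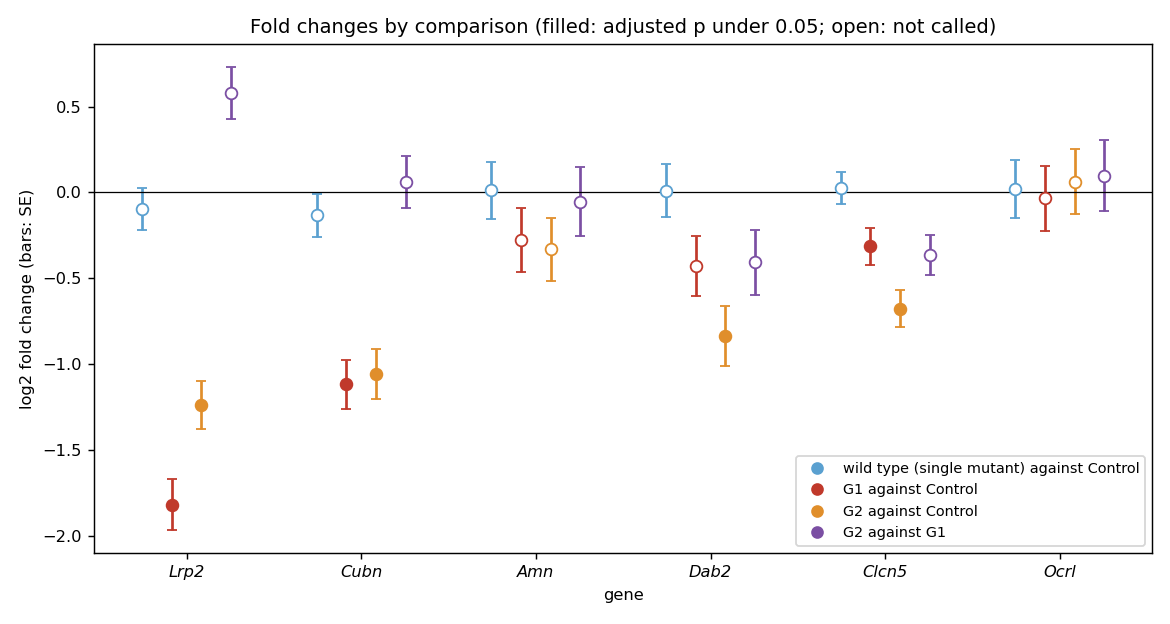
Log2 fold change of the 6 genes (points) with SE (bars) in 4 comparisons; filled points have an adjusted p under 0.05. Lrp2 reaches -1.82 in G1 and -1.24 in G2 against Control, Cubn is near -1.1 in both, and every point for wild type (single mutant) against Control lies near 0.

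Because proximal tubule markers were lower as a group, each gene was also set against them within each library, as its log2 CPM minus the mean log2 CPM of the 24 S1 and S2 markers. This ratio does not depend on how libraries are scaled. Of the 24 markers 22 fell for the mean of the alleles against Control, where 18% of all tested genes were called lower and 19.3% higher. Slc13a1, a sulfate transporter gene, rose (0.83 ± 0.24, edgeR adjusted p = 0.0259), a call lost without G1 replicate 1, G2 replicate 1, or Control replicates 1 or 3, and Slc7a8 was not called (-1.01 ± 0.36, adjusted p = 0.052). Relative to these markers Lrp2 differed between the alleles. The ratio was 0.89 and 1.15 in G1, 1.63 and 1.5 in G2, 1.38, 1.35 and 1.27 in wild type (single mutant), and 1.47, 1.30 and 1.72 in Control. Both G1 libraries lay below the 8 other libraries, with a mean of 1.02 ± 0.19 (SD), while the G2 mean of 1.56 ± 0.09 was close to the Control mean of 1.5 ± 0.21. This split by allele was seen in the data and was not tested. Pooled over both alleles, the 4 libraries averaged 0.12 below the 6 others, with overlap (two-sided exact permutation test over libraries, p = 0.476, and 0.476 adjusted over the 11 relative levels tested), and the difference was 0.01 without G1 replicate 1.

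Cubn rose relative to the markers by 0.33 on the log2 scale, from a mean of -0.78 in the 6 others to -0.44 in the 4 (exact permutation p = 0.0286, adjusted 0.0314). Without single libraries the adjusted p was 0.0175 to 0.0786, and the call was lost in 9 of the 10 cases, every one but Control replicate 3. Control replicate 3, at -0.45, lay among the risk allele libraries. The other 4 genes were higher relative to the markers in all 4 risk allele libraries than in any other: Ocrl by 1.36, Amn by 1.02, Clcn5 by 0.85 and Dab2 by 0.71 (exact permutation p = 0.0095 each, the smallest that 4 against 6 can give, adjusted 0.0116). Such a rise was common, since 77.9% of all tested genes stood wholly above in this ratio, with a median difference of 1.35. The shifts of Cubn (0.33), Dab2, Clcn5 and Amn were all below that median, and the shift of Ocrl was close to it. Only 0.14% of genes stood wholly below.

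**Figure D3:**
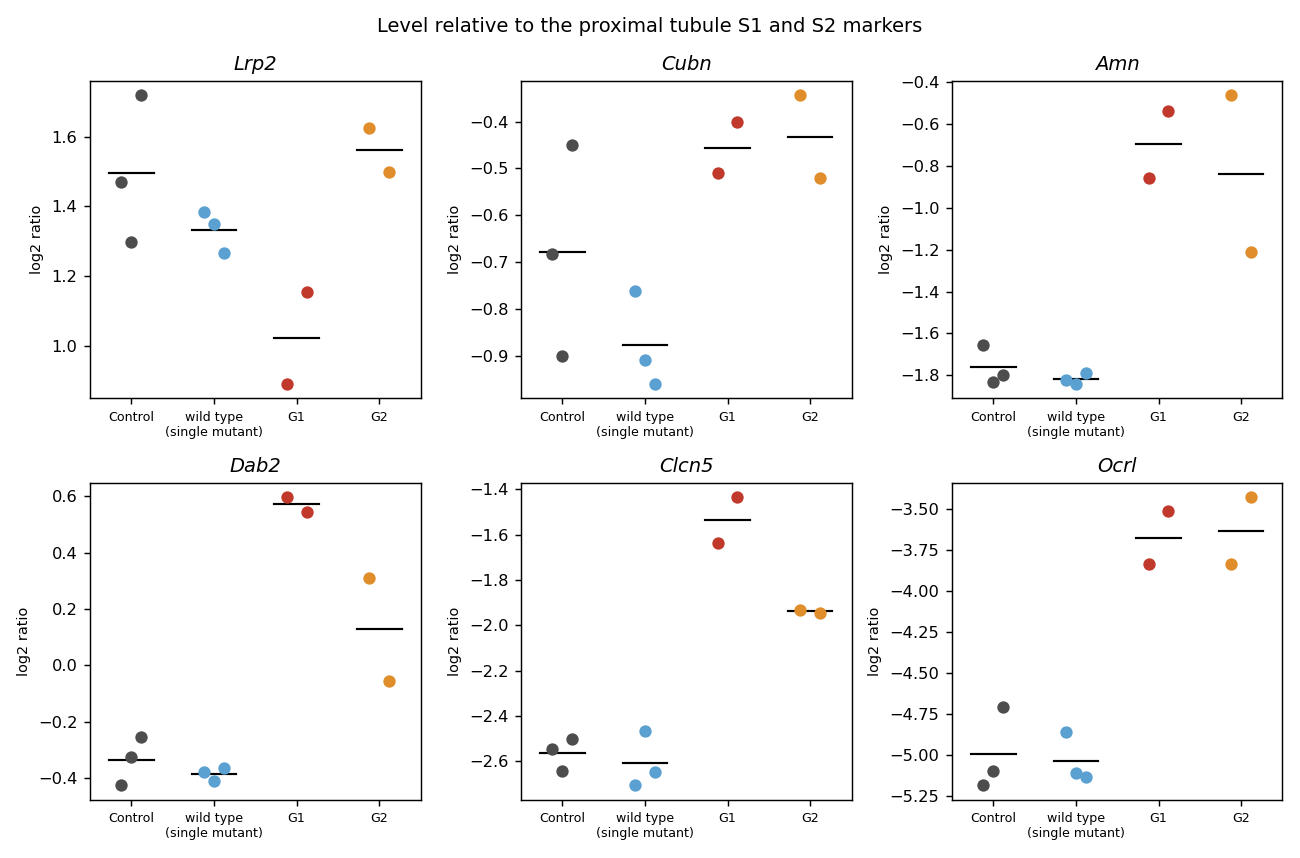
Log2 ratio of each gene to the mean of the 24 S1 and S2 markers in each library (points; bars are group means; the axes do not start at 0). Lrp2 overlaps between groups, and Amn, Dab2, Clcn5 and Ocrl lie higher in all 4 libraries with risk alleles.

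The members also changed by unequal amounts. Set against Lrp2 within each library, the other 5 genes were higher in all 4 risk allele libraries than in the 6 others, by 0.46 for Cubn, 0.83 for Dab2, 0.97 for Clcn5, 1.14 for Amn and 1.49 for Ocrl (exact permutation p = 0.0095 each, adjusted 0.0116). Lrp2 had the largest fall of the 6, so the direction of these ratios was largely set by the choice of reference. Of all tested genes, 80.3% stood wholly above in the ratio to Lrp2, with a median difference of 1.48. The shifts of Cubn, Dab2, Clcn5 and Amn were below that median and the shift of Ocrl was close to it. The ratio of Amn to Lrp2 went from -3.26 ± 0.22 in Control and -3.15 ± 0.08 in wild type (single mutant) to -1.72 ± 0.04 in G1 and -2.40 ± 0.44 in G2 (log2 of CPM, mean ± SD). For Cubn the ratio was -2.17 ± 0.02 in Control, -2.21 ± 0.06 in wild type (single mutant), -1.48 ± 0.11 in G1 and -1.99 ± 0.03 in G2. The 2 receptors thus kept nearly 1 ratio over the 6 other libraries, with an SD of 0.04, and stood apart from it in G1 more than in G2.

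Per length of annotated exon (RPKM, reads per 1000 bases per 1000000), the order of the 6 genes differed with the risk alleles. In Control, Lrp2 (116 ± 13.7 RPKM) and Amn (109 ± 7.52) were highest and did not differ beyond their spread, followed by Dab2 (74.2 ± 10.5), Cubn (28.7 ± 3.35), Clcn5 (10.1 ± 0.753) and Ocrl (2.28 ± 0.441). In wild type (single mutant), Amn at 110.3 ± 2.16 and Lrp2 at 108 ± 6.46 RPKM were again highest and within their spread. The order of the rest was that of Control. In G1, Amn (90.2 ± 1.56) and Dab2 (55.1 ± 10.9) stood above Lrp2 (32.8 ± 1.47), which was above Cubn (13.2 ± 1.58), Clcn5 (8.13 ± 0.606) and Ocrl (2.22 ± 0.0321). In G2, Amn was at 86.9 ± 31.2, while Lrp2 (49.1 ± 3.13) and Dab2 (41.6 ± 7.48) did not differ beyond their spread. The length counts every annotated exon of a gene, so the level of a gene with many isoforms can be understated. Exon lengths ran from 1843 bases for Amn to 16701 for Lrp2. The cDNA was primed with oligo-dT, and neither coverage along the transcripts nor RNA quality was examined here.

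The genes whose course over the 10 libraries was most like that of each member were found by the root mean square difference of centred log2 CPM, among 14319 genes whose mean reached 1 CPM. These genes were chosen for their likeness, so their own changes are a description with no test, and libraries that share a group share much of their pattern. Nearest to Lrp2 were Lrrk2, a kinase gene (difference 0.117), Fbp1, an enzyme of gluconeogenesis and 1 of the 24 markers (0.139), and Ndufs1, a subunit of respiratory complex I (0.141). Lrrk2 averaged 51.3 CPM in G1 and 78.4 in G2, against 167 in wild type (single mutant) and 158 in Control. Nearest to Cubn were Mfn2, a mitochondrial fusion gene (0.0983), Fam210a (0.107) and Pyroxd2 (0.116). Mfn2 averaged 87.3 CPM in G1 and 95.7 in G2, against 186 in Control. Between the 2 receptors the difference was 0.281, with 191 genes nearer to Lrp2 than Cubn was and 792 nearer to Cubn than Lrp2 was.

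The intracellular members had neighbours of their own. Nearest to Dab2 were Atp6v1b2, a subunit of the vacuolar proton pump (0.0848), Mfsd1, a lysosomal membrane transporter gene (0.104), and 4933431E20Rik (0.11). Those of Clcn5 were Hook1, a microtubule adaptor gene (0.0633), Ap2a2, a subunit of the clathrin adaptor AP-2 (0.0742), and Dcun1d3 (0.0822). Dab2 and Clcn5 were close to each other at 0.143, with 16 genes nearer to Dab2 than Clcn5 was and 159 nearer to Clcn5 than Dab2 was. For Amn the nearest were Tmbim4 (0.111), Mrpl50 (0.115) and Ube2u (0.118), and for Ocrl they were Ciz1 (0.084), Jpx (0.0939) and Arid2 (0.0944). 

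Other genes of the pathway were read from lists by role, in the mean of the risk alleles against Control, where 18% of all tested genes were called lower and 19.3% higher. With library totals alone, 1600 of the 17823 tested genes were called lower and 6037 higher, the background for counts in that setting. Of 9 co-receptors and chaperones 4 fell, 2 rose and 3 were not called, with a median log2 fold change of -0.33, and with library totals alone 2 fell and 3 rose. Folr1, the folate receptor of the brush border, averaged 187 ± 39.4 CPM (SD) in G1 and 165 ± 15.2 in G2, and fell from 478 ± 16.8 in Control (-1.45 ± 0.13, edgeR adjusted p = 0.000105). Lrpap1, which encodes RAP, the chaperone that keeps megalin from binding ligands too early, averaged 246 ± 5.26 CPM in G1 and 383 ± 46.8 in G2, against 530.3 ± 38.8 in Control (-0.79 ± 0.10, adjusted p = 0.000644). In the other direction Lgals3, the sugar-binding protein galectin-3, rose by 2.16 ± 0.22 and Scarb2, a lysosomal membrane receptor gene, by 0.50 ± 0.11.

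Endosome acidification genes were lower where they were called. Of 22 genes 12 fell, none rose and 10 were not called, with a median of -0.33, beside 18% lower and 19.3% higher of all tested genes. With library totals alone 7 fell and 3 rose, where 1600 of 17823 tested genes were called lower and 6037 higher. Slc9a3, the sodium-proton exchanger NHE3 of the brush border, held 12.8 ± 1.34 CPM in G1 and 11.1 ± 5.01 in G2, down from 40.4 ± 7.51 in Control (-1.76 ± 0.22, edgeR adjusted p = 0.000458). Clcn3, a relative of Clcn5, fell by 0.93 ± 0.13 on the log2 scale, and the proton pump subunit gene Atp6v1a by 0.89 ± 0.10 (adjusted p = 0.000774 and 0.000349).

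Coat, sorting and phosphatase genes were called in both directions, at shares not far from the 18% lower and 19.3% higher of all tested genes, except that fewer sorting genes rose. With library totals alone, the background for the counts below was 1600 of 17823 tested genes called lower and 6037 higher. Of 21 clathrin adaptor and coat genes 5 fell, 4 rose and 12 were not called, with a median of 0.02. With library totals alone 1 fell and 10 rose. Epn1, the clathrin adaptor epsin, fell by 0.66 ± 0.10 on the log2 scale, whereas Gipc1, an adaptor that binds megalin, rose by 0.61 ± 0.07 and Ap2b1, a subunit of AP-2, by 0.50 ± 0.07. Amph, an endocytic protein of nerve terminals, rose by 3.33 ± 0.52 from 0.23 ± 0.0626 CPM in Control. Ap2s1, another AP-2 subunit, rose by 0.39 ± 0.13 (edgeR adjusted p = 0.0404), a call that was lost in 10 alternatives. In G2 against Control Ap2s1 was not called (0.27 ± 0.15, adjusted p = 0.232). Among 12 phosphatase and partner genes of OCRL 3 fell and 2 rose, with Inpp5b, the closest relative of Ocrl, at -0.90 ± 0.15 (edgeR adjusted p = 0.00212), Pip4k2a, a lipid kinase gene, at 1.07 ± 0.18 and Pheta2, an endosomal partner of OCRL, at 1.99 ± 0.26. With library totals alone 1 fell and 6 rose, and 1 fell without the filter on low counts or without G1 replicate 2, G2 replicate 1, or Control replicates 2 or 3. Of 23 sorting and recycling genes 4 fell, 1 rose and 18 were not called. The small GTPase genes Rab14 (-0.45 ± 0.07) and Rab5b (-0.37 ± 0.09) and the retromer subunit gene Vps35 (-0.39 ± 0.09) fell. Rab11a of the recycling endosome rose by 0.39 ± 0.10. By allele against Control, Vps35 was not called in G1 (-0.24 ± 0.11, edgeR adjusted p = 0.11). Rab11a was not called in G2 (0.12 ± 0.12, adjusted p = 0.531). With library totals alone none of the list fell and 7 rose, and 2 or 3 rose in DESeq2, without the filter, and without G2 replicate 1 or wild type (single mutant) replicate 3. Without G1 replicate 2 or Control replicate 3 the rise of Rab11a was lost (adjusted p = 0.054 and 0.0592).

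Among 14 genes for filtered ligands and vitamin D enzymes, as transcribed in the kidney itself, 8 rose, 3 fell and 3 were not called, against 19.3% higher and 18% lower of all tested genes. In G1 alone 9 rose and in G2 alone 3 rose, where 19.5% and 12.7% of all tested genes were called higher. The metallothionein genes Mt2 and Mt1, whose proteins bind metals and are taken up by megalin, rose by 2.60 ± 0.31 and 1.46 ± 0.21. Mt1 was called in G1 against Control (2.39 ± 0.24, edgeR adjusted p = 0.000159) and was not called in G2 (0.53 ± 0.24, adjusted p = 0.144). Mt2 averaged 344 ± 20.9 CPM in G1 and 78.8 ± 2.73 in G2, against 27.1 ± 11.8 in Control. Tcn2, the vitamin B12 carrier transcobalamin, which megalin takes up, averaged 1176 ± 231 CPM in G1 and 1174 ± 190.02 in G2, and fell from 2453 ± 191 in Control (-1.06 ± 0.16, edgeR adjusted p = 0.00104). The plasma protein genes Apoh (-1.88 ± 0.47) and Alb (-3.58 ± 0.96) fell from 12.7 ± 7.57 and 11.7 ± 0.497 CPM in Control. Neither was called in G2 against Control (edgeR adjusted p = 0.144 and 0.128). In wild type (single mutant) Alb averaged 76.6 ± 106 CPM, with an SD above its mean. The call of Alb was lost in limma-voom (adjusted p = 0.14). It was also lost without any one of the 4 risk allele libraries (-3.60 to -3.57).

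**Figure D4:**
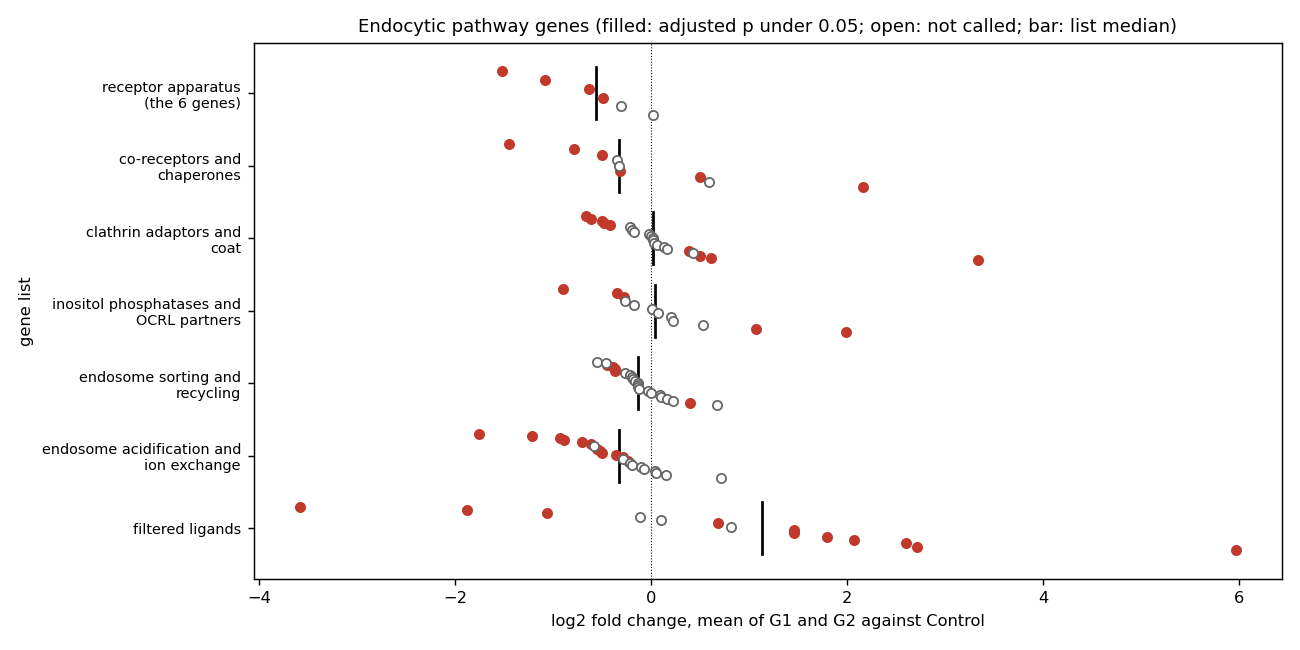
Log2 fold change of each gene (points) of the 6-gene apparatus and of 6 pathway lists, mean of G1 and G2 against Control; filled points have an adjusted p under 0.05 and vertical bars are list medians. The 6 genes have a median of -0.56 and the acidification list one of -0.33, while filtered ligands spread from -3.58 upward.

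Markers of other cells moved with the same libraries. Their counts for the mean of the alleles against Control stand beside 18% of all tested genes called lower and 19.3% higher. Counts by allele against Control stand beside 17.9% lower and 19.5% higher in G1, and 8.86% lower and 12.7% higher in G2. The 10 injured tubule markers all rose, from a summed 684 to 895 CPM in Control to 19797 to 28156 CPM in G1 and 4291 to 7923 CPM in G2. Of the 10 S3 markers 4 fell and 1 rose. By allele, 6 fell in G1 (median -1.75) and 1 in G2 (median -0.19). Of 8 distal convoluted tubule markers all fell. Among 8 thick ascending limb markers 4 fell and 2 rose, with 2 falls without G1 replicate 1 or Control replicate 1 and 1 rise without G1 replicate 2, G2 replicate 2, or Control replicates 1 or 2, and of 10 collecting duct markers 3 fell. No podocyte marker of 10 was called. However, 1 podocyte marker rose with only the groups compared and without wild type (single mutant) replicates 2 or 3 or Control replicate 2. Without Control replicate 1, 1 podocyte marker fell. When wild type (single mutant) was the reference 2 fell, where 19.3% of all tested genes were called lower. Of 10 endothelial markers 1 fell (4 without G2 replicate 2, and 2 or 3 without wild type (single mutant) replicates 2 or 3), with 6 lower in G1 alone and 0 in G2 alone. Of 10 fibroblast markers 4 rose, with 3 higher and 2 lower in G1 alone and 4 higher in G2 alone. With library totals alone, thick ascending limb markers gave 1 fall and 2 rises, and collecting duct markers 2 falls. In that setting 1600 of 17823 tested genes were called lower and 6037 higher for the mean of the alleles. The lower and higher counts were 1768 and 5687 in G1, and 727 and 4218 in G2. No endothelial marker then fell for the mean of the alleles, while 1 fell in G1 and 1 rose in G2. Fibroblast markers then gave 4 rises and 0 falls in G1 and 6 rises in G2. The falls among S3 and distal convoluted tubule markers kept their number for the mean of the alleles. The differences between alleles in these counts were not tested. Every marker of these lists passed the filter on low counts and was tested. Of 6 markers of other organs that make megalin or cubilin, 3 were too low to test and Tyr was at 0. The part of these cell markers in the levels of the 6 genes was not tested.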

How the data were processed

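Raw read counts were deposited by the authors as whole numbers, a table for every library, over 46517 Ensembl IDs. The submitters' processing notes name CASAVA 1.8.2, FastQC and Trim Galore, with STAR 2.4.1d, HTSeq 0.6.1 and build GRCm38. They state neither annotation release nor strand setting, so overlapping antisense genes cannot be told apart. GENCODE M21 gave symbols, coordinates and exon lengths (46005 IDs matched). RefSeq gave promoter windows for all 6 genes, 2 each for Dab2 and Clcn5. Every pair of libraries differed beyond sampling noise (lowest chi-square per gene 26.2).

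The test was edgeR 4.0.16 (R 4.3.3) with TMM scaling and filterByExpr at a minimum count of 10, as a single quasi-likelihood model of the genotype labels over all 10 libraries (common biological coefficient of variation 0.249). Called genes have a Benjamini-Hochberg adjusted p under 0.05 over the 17823 tested. SE came from the fold change and its F statistic. Replicates are numbered in accession order. Within-library ratios were compared by two-sided exact permutation tests, adjusted over 11 relative levels. Alternatives used DESeq2 1.42.0, limma 3.58.1 (voom), DESeq2 size factors, library totals, no filter, only the groups compared, another summary or reference for the ratios, and each library left out in turn. The code was tested on simulated data.

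The members and gene lists were chosen with earlier results of these data known. Named pathway genes are the 3 called genes with the lowest p of each list and every called gene against the majority of its list, and pattern neighbours are the 3 nearest genes of each member (pseudocount 0.1 CPM). RNA of the APOL1 transgene was not analysed here.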

Additional observations from a re-analysis of the deposited data

Results flagged for a closer look

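Among the named pathway genes 5 differed in the test of G2 against G1 itself (edgeR, p adjusted over all tested genes), and none of the 6 members did. In that test 6.72% of all tested genes were called. The named genes were picked for calls in these same risk allele libraries, so this count is a description. The metallothionein genes were lower in G2, Mt2 with a log2 fold change of -2.13 ± 0.38 (adjusted p = 0.0196) and Mt1 with -1.86 ± 0.27 (adjusted p = 0.0122). Lgals3 was lower in G2 at -1.27 ± 0.27 (adjusted p = 0.0317), and Rab11a at -0.56 ± 0.13 (adjusted p = 0.0409). Lrpap1, the chaperone of megalin, was higher in G2 at 0.64 ± 0.14 (adjusted p = 0.0326). For each of the 5, the call was lost without G1 replicate 1, without G1 replicate 2 and without G2 replicate 2. Over all alternatives Rab11a lost it in 8, Lrpap1 in 7, Mt2 in 4, and Lgals3 and Mt1 in those 3. Lrrk2 (0.61 ± 0.15, edgeR adjusted p = 0.0435) and Ndufs1 (0.52 ± 0.13, adjusted p = 0.0465) were also higher in G2. They were picked as neighbours of Lrp2 for their likeness, and lost the call in 10 and 14 alternatives.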

How the results depend on the processing

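No paired analysis was possible because the labels give the groups no shared replicate numbers. The falls of Lrp2 and Cubn kept direction and call in every alternative, for the mean of the alleles against either reference group and for each allele against Control, and so did those of Dab2 and Clcn5 for the mean of the alleles. With library totals alone, genes called higher and lower numbered 6037 and 1600 for the mean of the alleles against Control, 6226 and 1710 for that mean against wild type (single mutant), 5687 and 1768 in G1 and 4218 and 727 in G2. With only the groups compared, 2510 genes were called in G2 against Control, 962 of them lower, and 451 were higher in G2 than in G1. Between wild type (single mutant) and Control, no filter gave 4 calls, all 4 lower, and DESeq2 14, with 2 higher and 12 lower. For G2 against G1, DESeq2 called 2499 genes, 1222 higher and 1277 lower, and limma-voom 830 lower. Of the 6 genes, 1 (Lrp2) was then higher in DESeq2, in limma-voom and with library totals alone, and 1 (Clcn5) lower in DESeq2.

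Leaving out each library in turn, the mean of the alleles against Control gave 2128 to 3360 genes called lower. G1 against Control gave 3397 to 6912 called, 2130 to 3669 higher and 1267 to 3360 lower, with the lowest without G1 replicate 2. G2 against Control gave 1970 to 4116 called, 1173 to 2383 higher and 797 to 1733 lower, with the lowest without G2 replicate 1. Wild type (single mutant) against Control gave 0 to 2 called, 0 to 1 higher and 0 to 1 lower. G2 against G1 gave 22 to 1441 called, 11 to 850 higher and 11 to 591 lower, with 0 to 1 of the 6 genes higher. Relative to the S1 and S2 markers, Lrp2 ranged from -0.23 to 0.012, turning sign without G1 replicate 1, and Cubn from 0.30 to 0.40. Where a count or sign moved, the cause was not tested. An arm left with 1 library was assumed to vary like the other groups.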
